A study of Caenorhabditis elegans with 4 samples.

Results

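The annular furrow collagens of *C. elegans* are dpy-2, dpy-3, dpy-7, dpy-8, dpy-9 and dpy-10, and they were taken as the rows of the deposited gene table that carry these names. All 6 were found among the 46934 gene rows of the table, and all 6 received an adjusted p-value. The worm cuticle is a collagen matrix that the epidermis secretes anew at each moult, and furrow collagens form the circumferential indentations that ring the body. Loss of any one of them removes the furrows and leaves a short, dumpy body, and in the worm it is known to switch on osmotic, detoxification and antimicrobial genes. Furrow collagen genes are transcribed mainly in the epidermis of larvae ahead of each moult, and the dpy-7 promoter is a standard driver of epidermal expression.

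Total RNA depleted of ribosomal RNA was sequenced from whole, synchronized adults grown on bacterial food without other treatment. Of the 4 libraries, 2 came from an eggd-1 null mutant, in which, per the study, the whole open reading frame is deleted. EGGD-1 is a germline protein that keeps germ granules perinuclear. The other 2 came from control worms labelled pgl-1::RFP, in which the P granule component PGL-1 carries a red fluorescent tag. The labels do not say whether the mutant also carries that tag, so eggd-1 loss and the tag cannot be told apart from the labels alone. The titles call the libraries sequencing replicates while the study describes biological replicates, so the p-values measure only the spread between these libraries.

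The eggd-1 libraries held 18707358 and 17603513 counts, and the control libraries held 20223368 and 30812591 counts. The targeted gene, listed in the table as mip-1, had 6 and 3 counts in eggd-1 adults and 2074 and 3177 counts in controls, as the labels imply. DESeq2 gave an adjusted p-value to 16773 rows. Of these, 3127 (18.6%) were higher in eggd-1 adults and 3426 (20.4%) were lower at an adjusted p-value under 0.05, and 951 (5.67%) were also at least 4-fold higher. Libraries correlated at 0.997 within the eggd-1 pair and at 0.9956 within the control pair on variance-stabilized counts, and at 0.957 to 0.9697 between genotypes.

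Of the 6 furrow collagens, dpy-8 and dpy-9 were higher in eggd-1 adults and none was lower. The gene dpy-8 was 8.25-fold higher (95% interval 4.76 to 14.3) and dpy-9 was 2.57-fold higher (1.5 to 4.4), whereas dpy-2, dpy-3, dpy-7 and dpy-10 had estimates of 1.32-fold to 1.59-fold that did not pass the test. Thus 33.3% of the members were called higher, beside 18.6% of all rows, and 1 of the 6 was at least 4-fold higher. In 5 of the 6 genes both eggd-1 libraries lay above both controls, a pattern seen in 38.5% of all rows with an adjusted p-value. The median log2 fold change of the 6 genes was 0.59, beside 0.0 for all rows. In RNA from whole animals, more cells of a type and more RNA per cell cannot be told apart.

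**Figure D1:**
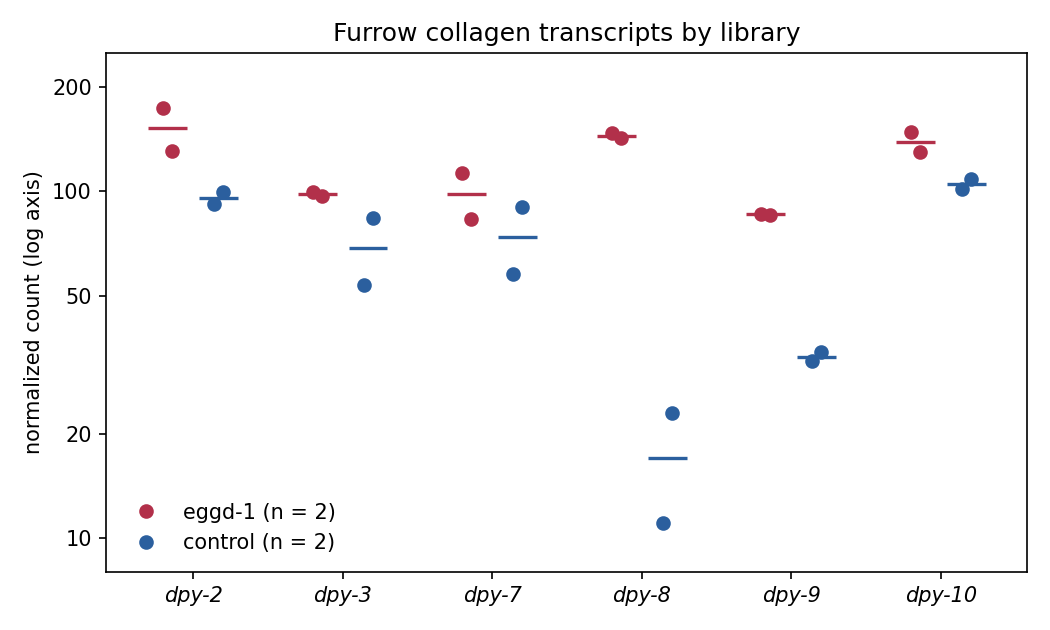
Normalized counts (log axis) of the 6 furrow collagens, with 1 point per library, eggd-1 in red, control in blue, and a bar at the mean of each pair. The eggd-1 points of all genes lie between 83.2 and 173.4, while the control points of dpy-8 lie at 11.1 and 22.9 and those of dpy-9 at 32.4 and 34.3, below the control points of the other 4 genes.

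The largest difference among the members was that of dpy-8, a structural furrow collagen encoded on chromosome X (5148804 to 5150476, minus strand, 4 exons; positions from the WBcel235 annotation). It had 133 and 116 counts in the eggd-1 libraries and 11 and 32 counts in the controls. Scaled by library, these were 146.9 and 141.9 normalized counts in eggd-1 adults against 11.1 and 22.9 in controls, so the groups stood far apart, and control replicate 2 was above control replicate 1. The counting intervals (95% Poisson, for counting error only) were 111.4 to 157.6 and 95.9 to 139.1 counts in eggd-1 libraries, and 5.49 to 19.7 and 21.9 to 45.2 counts in controls. The mean was 144.4 ± 3.56 normalized counts in eggd-1 adults and 17 ± 8.3 in controls (SD, n = 2 each), which DESeq2 put at 3.04 on the log2 scale (SE 0.41, adjusted p = 2.11e-12). The size depends on the control library used. With control replicate 1 left out the log2 fold change of dpy-8 was 2.65, and with control replicate 2 left out it was 3.68, and both passed the test.

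The gene dpy-9, another structural furrow collagen, lies near an end of chromosome IV (257403 to 259204, minus strand, 4 exons). It had 78 and 70 counts in the eggd-1 libraries and 32 and 48 counts in the controls, or 86.2 and 85.6 normalized counts in eggd-1 adults against 32.4 and 34.3 in controls. Both pairs were tight and did not overlap. The means were 85.9 ± 0.387 and 33.3 ± 1.35 normalized counts in eggd-1 and control adults (SD, n = 2 each), and the DESeq2 log2 fold change was 1.36 (SE 0.4, adjusted p = 0.00247). With any one library left out its log2 fold change stayed between 1.31 and 1.39, but the adjusted p-value then ranged over 0.0547 to 0.119 and the call was lost.

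The neighbouring pair dpy-2 and dpy-10 on chromosome II had the most furrow collagen counts in control animals. They are transcribed away from each other with 2064 bases between them. Their positions are 6714292 to 6715971 on the plus strand for dpy-2 and 6710149 to 6712227 on the minus strand for dpy-10. A further protein-coding gene, T14B4.19, overlaps dpy-10 and reaches into this stretch to within 1360 bases of dpy-2. The gene dpy-10 is a common co-selection target in worm genome editing, because some of its alleles give a visible roller or dumpy body. It had 148.0 and 129.7 normalized counts in eggd-1 adults against 101.2 and 108.6 in controls, without overlap, and its log2 fold change of 0.4 (95% interval -0.16 to 0.96) did not pass the test (DESeq2 adjusted p = 0.269). Its neighbour dpy-2 had 173.4 and 130.9 normalized counts in eggd-1 adults against 92.1 and 99.3 in controls. The dpy-2 pairs did not overlap either, and the log2 fold change of 0.67 (SE 0.29, 95% interval 0.09 to 1.24) missed the threshold narrowly (DESeq2 adjusted p = 0.056). The gene dpy-2 was called at an adjusted p = 0.00198 by edgeR and at 0.03 by DESeq2 after rows with a mean normalized count under 10 were removed.

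The remaining furrow collagens, dpy-3 and dpy-7, are both on chromosome X, each with 2 exons on the minus strand, dpy-3 at 2144605 to 2145647 and dpy-7 at 7536467 to 7537792. The gene dpy-3 had 99.4 and 96.6 normalized counts in eggd-1 adults against 53.6 and 83.6 in controls, so both eggd-1 libraries were above the controls but close to control replicate 2. Its log2 fold change was 0.5 (SE 0.35, 95% interval -0.19 to 1.2, DESeq2 adjusted p = 0.265). The gene dpy-7 had 112.7 and 83.2 normalized counts in eggd-1 adults against 57.7 and 90.0 in controls. It was the only member whose groups overlapped, since control replicate 2 lay between the eggd-1 libraries. Its log2 fold change was 0.4 (SE 0.36, 95% interval -0.31 to 1.1, DESeq2 adjusted p = 0.401), and leaving out control replicate 1 gave 0.11 while leaving out control replicate 2 gave 0.75. For the 4 genes that missed the threshold, the upper ends of the intervals were 1.95-fold to 2.37-fold, so differences up to those sizes were not excluded by these counts.

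The control libraries differed from each other in a subset of the members, a pattern noted after the values were seen. Control replicate 2 was above control replicate 1 in normalized counts of all 6 genes. The gap was wide for dpy-3 (83.6 against 53.6), dpy-7 (90.0 against 57.7) and dpy-8 (22.9 against 11.1). It was narrow for dpy-2 (99.3 against 92.1), dpy-9 (34.3 against 32.4) and dpy-10 (108.6 against 101.2). The genes with the wide gap are on chromosome X and the others are autosomal, but 6 genes are too few to show a chromosome pattern. Among the body shape collagens named below, control replicate 2 was also the higher control. This held for sqt-1 (34.3 against 15.2), dpy-5 (136.5 against 88.1), dpy-14 (465.9 against 303.7) and dpy-17 (791.1 against 595.2). Between genotypes, chromosome X as a whole held 20.6% of genes higher in eggd-1 adults, within the 15.3% to 21.3% of the autosomes. That share does not measure the gap between the controls. The cause of the gap between the controls was not tested.

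Summed over the 6 genes, eggd-1 libraries held 766.7 and 667.8 normalized furrow collagen counts and control libraries held 348.2 and 438.8. The sum was thus 1.82 times as high in eggd-1 adults by the means of 717.2 and 393.5 normalized counts. Without dpy-8 the sums were 619.8 and 526.0 in eggd-1 adults and 337.1 and 415.9 in controls, a ratio of 1.52. Furrow collagen transcripts were scarce in both genotypes, at 37.1 and 31 CPM of the whole library in eggd-1 adults and 17 and 19.9 CPM in controls.

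The make-up of the furrow collagen counts differed between genotypes mainly in dpy-8. It made up 19.2% and 21.2% of the 6 genes' counts in eggd-1 libraries against 3.2% and 5.21% in controls. The share of dpy-10 was 19.3% and 19.4% in eggd-1 libraries and 29.1% and 24.8% in controls, and that of dpy-9 was 11.2% and 12.8% in eggd-1 libraries and 9.3% and 7.82% in controls. The dpy-7 share was 14.7% and 12.5% in eggd-1 libraries and 16.6% and 20.5% in controls, and the dpy-3 share was 13% and 14.5% in eggd-1 libraries and 15.4% and 19.1% in controls. For dpy-2 the shares were 22.6% and 19.6% in eggd-1 libraries and 26.5% and 22.6% in controls. Taken within each library, which removes the scaling between libraries, the ratio of dpy-8 to dpy-10 was 0.993 and 1.09 in eggd-1 adults and 0.11 and 0.211 in controls. The ratio of dpy-9 to dpy-10 was 0.582 and 0.66 in eggd-1 adults and 0.32 and 0.316 in controls. An exact two-sided permutation test of these log ratios over the libraries gave p = 0.333 for dpy-8, dpy-9 and dpy-2 and p = 1.0 for dpy-3 and dpy-7, where 0.333 is the smallest value that 2 against 2 libraries allow.

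**Figure D2:**
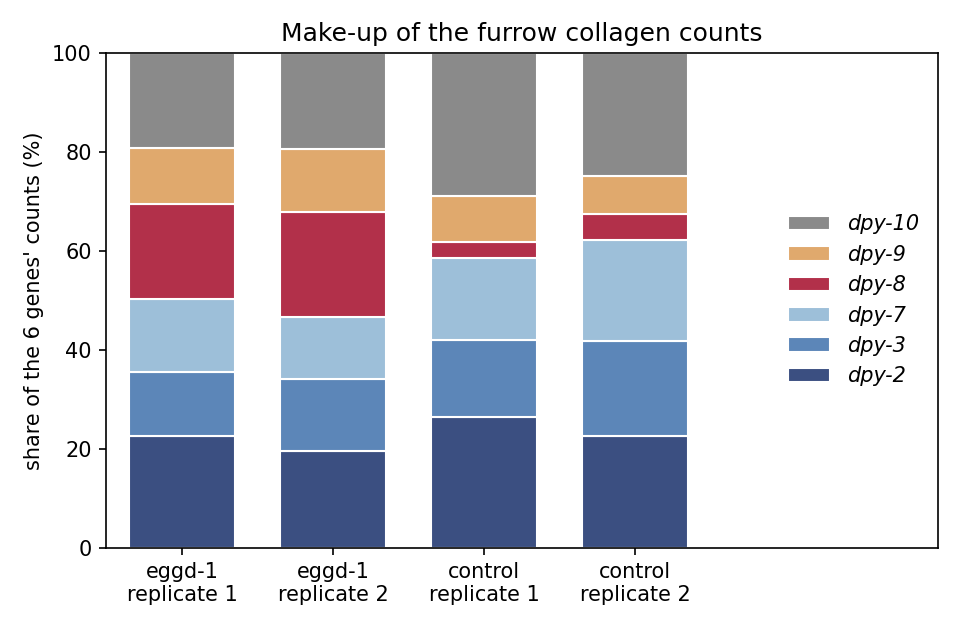
Share (%) of each gene in the summed counts of the 6 furrow collagens, with 1 stacked bar per library, eggd-1 libraries on the left and control libraries on the right. The dpy-8 segment (red) is 19.2% and 21.2% of the eggd-1 bars and 3.2% and 5.21% of the control bars.

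Per kilobase of exon, a scale on which levels of different genes can be set side by side, the members were more alike in eggd-1 adults than in controls. In eggd-1 adults the means were 114.9 ± 22.7 for dpy-2, 102.0 ± 2.06 for dpy-3, 95.4 ± 2.36 for dpy-8, 87.2 ± 8.16 for dpy-10, 85.4 ± 18.2 for dpy-7 and 81.9 ± 0.369 for dpy-9 (normalized counts per kb, SD, n = 2). Neighbours in this order overlapped between libraries or nearly met, except that both dpy-8 values lay below both dpy-3 values. In controls the order was dpy-2 at 72.3 ± 3.86, dpy-3 at 71.4 ± 22.0, dpy-10 at 65.9 ± 3.29, dpy-7 at 64.4 ± 19.9, dpy-9 at 31.8 ± 1.29 and dpy-8 at 11.2 ± 5.48 normalized counts per kb. Neighbours among the first 4 of these overlapped between libraries, although dpy-2 (69.6 and 75.0) lay above dpy-10 (63.5 and 68.2), and dpy-9 and dpy-8 stood below all 4 and apart from each other. The gene dpy-8 thus ranked last of the 6 in controls and held the rank 3 in eggd-1 adults.

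Other collagens that set body shape give a scale for these values, and a list of them held 14 genes found in the table. Of these, 12 were higher in eggd-1 adults and 1 was lower, and 10 were at least 4-fold higher. Over all rows 18.6% were higher, 20.4% were lower and 5.67% were at least 4-fold higher. The median log2 fold change of the list was 3.01, beside 0.59 for the furrow collagens. The largest difference among those with a mean of at least 100 normalized counts was in sqt-1, a collagen whose mutants are squat or roll. It had 466.2 and 336.4 normalized counts in eggd-1 adults against 15.2 and 34.3 in controls (3.97 on the log2 scale, SE 0.32, DESeq2 adjusted p = 1.86e-32). The gene dpy-5, whose product is a cuticle collagen needed for normal body length, had 1530.0 and 1003.0 normalized counts in eggd-1 adults against 88.1 and 136.5 in controls (3.48, SE 0.23, adjusted p = 2.41e-47). The gene dpy-17, a collagen that acts early in cuticle assembly, was lower, with 406.5 and 423.2 normalized counts in eggd-1 adults against 595.2 and 791.1 in controls (-0.74, SE 0.19, adjusted p = 0.000459), and 0 genes of the list were lower without control replicate 2 or without eggd-1 replicate 1. The value for dpy-8 lay close to the median of this list. The values of dpy-2, dpy-3, dpy-7 and dpy-10 (0.4 to 0.67) lay below each of the 12 that were higher and above that of dpy-14 (0.1, SE 0.22, adjusted p = 0.758). The difference between the lists was not tested.

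**Figure D3:**
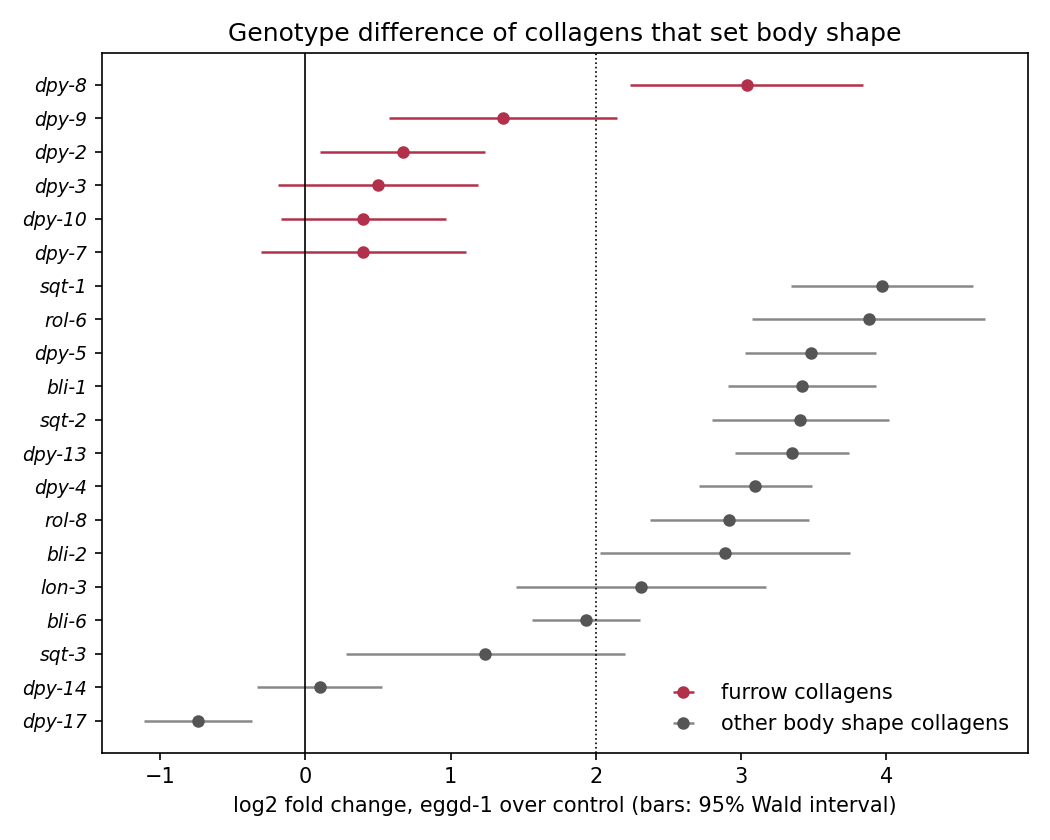
Log2 fold change of eggd-1 over control with its 95% Wald interval for the 6 furrow collagens (red) and 14 other body shape collagens (grey), with a solid line at 0 and a dotted line at 2, a 4-fold difference. Among furrow collagens only the interval of dpy-8 (2.25 to 3.84) lies wholly above the dotted line, and those of dpy-3, dpy-7 and dpy-10 cross 0.

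Over all cuticle collagens, 147 had an adjusted p-value, of which 97 were higher and 8 were lower in eggd-1 adults. At least 4-fold higher were 72, and the median log2 fold change was 2.1. The shares over all rows were 18.6% higher, 20.4% lower and 5.67% at least 4-fold higher. With control replicate 1 left out 13 were lower, and 5 were lower without control replicate 2 or without eggd-1 replicate 1. In this family dpy-8 ranked 30 of 147 by log2 fold change, dpy-9 ranked 89, dpy-2 ranked 103, dpy-3 ranked 106, dpy-10 ranked 109 and dpy-7 ranked 110. All members but dpy-8 were below the median of these 147. With shrunken fold changes dpy-9 was at 1.04, above a median of 0.81 over all 173 collagens with a count, and the unshrunken median of the 173 was 1.56 without eggd-1 replicate 1, beside 2.09 with all libraries. Each member was above most genes, since 31.3% of all rows with an adjusted p-value lay above dpy-7 and 1.68% lay above dpy-8.

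**Figure D4:**
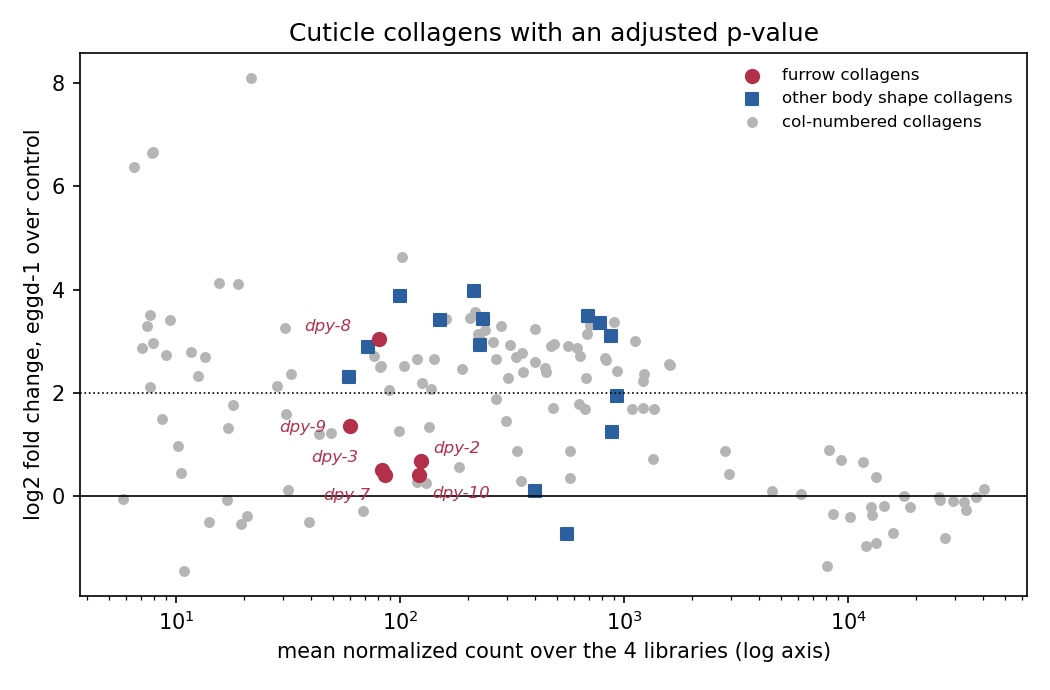
Log2 fold change of eggd-1 over control against the mean normalized count (log axis) for 147 cuticle collagens, with furrow collagens in red, other body shape collagens as blue squares and col-numbered collagens in grey; lines mark 0 and 2. Of the furrow collagens, dpy-8 at 3.04 is among the many collagens above 2, and the other 5 lie between 0.4 and 1.36.

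Collagens need processing before and after secretion, and 15 genes of these steps were examined. In eggd-1 adults 5 of the 15 were higher, 3 were lower and 0 exceeded 4-fold, and the median log2 fold change was 0.3, beside 18.6% higher and 20.4% lower over all rows. Without either eggd-1 library 2 were higher and 0 were lower, without control replicate 1 3 were higher, and with a replicate block 2 were higher and 1 was lower. The gene mlt-7, a peroxidase that cross-links cuticle proteins, had 990.9 and 857.4 normalized counts in eggd-1 adults against 462.6 and 546.0 in controls (log2 fold change 0.87, DESeq2 adjusted p = 2.78e-06). The gene doxa-1, which matures the dual oxidase that drives cross-linking, was also higher (0.77, adjusted p = 0.0267). Lower were dpy-11, a thioredoxin-like enzyme of the epidermis (-0.44, adjusted p = 0.00339), and tmem-39, a membrane protein needed for collagen secretion (-0.4, adjusted p = 0.0148).

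Of 10 transcription factors of the epidermis and the moult timer, 5 were higher, 1 was lower and 0 exceeded 4-fold (median log2 fold change 0.55), with 3 higher without control replicate 1 or without eggd-1 replicate 1, and 0 lower without eggd-1 replicate 2. Among all rows with an adjusted p-value, 18.6% were higher, 20.4% were lower and 5.67% were at least 4-fold higher. The same shares serve as the scale for the moulting genes below. The gene grh-1, the worm Grainyhead factor, had 380.0 and 332.7 normalized counts in eggd-1 adults against 128.6 and 138.6 in controls (1.41, adjusted p = 4.92e-09). The gene lin-42, the worm relative of the Period clock gene, had 744.6 and 658.1 normalized counts in eggd-1 adults against 283.4 and 311.6 in controls (1.24, adjusted p = 1.22e-10). The GATA factor elt-1, which specifies epidermis in the embryo, was lower (-0.8, adjusted p = 0.000479). Of 18 genes of the moulting cycle, 10 were higher, 1 was lower and 4 were at least 4-fold higher (median log2 fold change 0.98), with 0 lower without either eggd-1 library and 2 lower without control replicate 2. The largest of these differences was in qua-1, a hedgehog-related protein needed for moulting, with 262.9 and 184.7 normalized counts in eggd-1 adults against 17.2 and 21.4 in controls (3.52, adjusted p = 6.8e-21). The gene acn-1, a moulting gene related to angiotensin-converting enzyme, was also higher (2.08, adjusted p = 4.38e-15), and fbn-1, a fibrillin-like matrix protein, was lower (-0.47, adjusted p = 0.00159).

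Genes that furrow collagen mutants are known to switch on showed no common direction here. Of the 12 measured, 3 were higher and 1 was lower in eggd-1 adults, beside 18.6% higher and 20.4% lower over all rows. The median log2 fold change was -0.12. With edgeR 3 were higher and 5 were lower, and without either eggd-1 library 1 was higher. Leaving out control replicate 1 gave a median of 0.05, and leaving out control replicate 2 gave -0.3. The gene hmit-1.1, a myo-inositol transporter of the osmotic response, had 321.5 and 346.2 normalized counts in eggd-1 adults against 89.1 and 72.9 in controls (2.05, SE 0.25, adjusted p = 3.03e-15). The gene gpdh-1, the glycerol-3-phosphate dehydrogenase of the same response, was slightly higher (0.56, SE 0.22, adjusted p = 0.028). The gene gst-4, a glutathione S-transferase and marker of detoxification, was lower, with 279.5 and 288.7 normalized counts in eggd-1 adults against 617.5 and 592.4 in controls (-1.09, SE 0.18, adjusted p = 2.58e-08). The antimicrobial peptide gene nlp-27 had 296.1 and 415.9 normalized counts in eggd-1 adults against 513.2 and 460.2 in controls and did not pass the test (-0.45, adjusted p = 0.067). The remaining higher gene of the list belongs to its antimicrobial part and had a mean of only 59.0 normalized counts (1.62, SE 0.44, DESeq2 adjusted p = 0.00109).

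Markers of cell types and stages are given beside the 18.6% of all rows that were higher and the 20.4% that were lower. Of 10 epidermal markers, 3 were higher and 1 was lower, and their summed level overlapped, at 4460.9 to 4469.7 normalized counts in eggd-1 adults against 3567.1 to 4521.6 in controls. This list shares genes with the transcription factor and moulting lists, among them the 1 that was lower, elt-1. The 3 that were higher had means of only 39.7 to 57.2 normalized counts and add little to the sum. Of 8 markers of the adult epidermis, 7 were higher and 0 were lower, with sums of 19352.9 to 19622.1 in eggd-1 adults against 9600.0 to 15396.4 in controls. All 8 are cuticle collagens already counted among the 147 above, bli-1 and bli-2 also as body shape collagens, so these calls repeat the collagen result. Most of the sum is the adult collagen gene col-19, at 14435.4 and 15473.0 normalized counts in eggd-1 adults against 8602.9 and 14510.2 in controls. It did not pass the test (0.37, DESeq2 adjusted p = 0.41). Of 8 markers of early embryos, 7 had an adjusted p-value, of which 3 were lower and 0 were higher, with sums of 183.5 to 208.8 in eggd-1 adults against 415.0 to 465.9 in controls, and 1 of the 8 was at 0 in at least 1 library. Of 8 sperm markers, 7 were higher and 0 were lower, with sums of 1858.0 to 2282.4 in eggd-1 adults against 581.0 to 763.2 in controls. Of 5 markers of body wall muscle, 4 were higher and 0 were lower, with sums of 199713.2 to 202460.6 against 99960.5 to 126708.3. Oocyte markers (3 of 6 higher), intestinal markers (2 of 4 higher, 1 lower) and neuronal markers (2 of 5 higher, 1 lower) had medians of 0.31, 0.57 and 0.29. The part of these shifts in the furrow collagen values was not tested.

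Across the 4 libraries the profile of dpy-8 was far from those of the other members. The distance between centred log2 profiles was 1.9 to dpy-9 and 2.81 to dpy-10, the nearest and the farthest of the other 5 genes. Among dpy-2, dpy-3, dpy-7 and dpy-10 the distances were 0.295 to 0.465, and dpy-9 lay between, at 0.754 to 1.05 from these 4. Among 9439 other genes with a mean of at least 100 normalized counts, the 5 closest to the mean profile of the 6 members were C14A4.12, sad-1, ifb-2, F26A10.2 and ges-1, at distances of 0.0422 to 0.0736. No member was that near to this mean, which dpy-8 pulls upward: dpy-9 lay at 0.385, dpy-2, dpy-3, dpy-7 and dpy-10 at 0.511 to 0.723, and dpy-8 at 2.09. The 5 genes thus match the average and no single furrow collagen. The kinase gene sad-1 had 177.9 and 159.0 normalized counts in eggd-1 adults against 66.8 and 93.6 in controls. The gene ges-1, a gut esterase, had 858.4 and 770.6 normalized counts in eggd-1 adults against 339.1 and 426.6 in controls. With 4 libraries in 2 groups, such a profile is mostly the genotype difference, which was 1.05 to 1.11 on the log2 scale for these 5 genes.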

How the data were processed

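Whole-adult RNA of 2 eggd-1 and 2 control libraries was counted by the authors. Trimming was by TrimGalore, alignment to WormBase WS279 by STAR, removal of unpaired reads by SAMtools and stranded gene counting by featureCounts, which split a read that maps to several places (transposons: Salmon). Tool versions are not given in the sources used here. What they deposited are thus unnormalized expected counts, some of them fractional, although all furrow collagen values were whole. A further 7 columns match no sample and were not used. Positions came from Ensembl's WBcel235 annotation, where 99.98% of the identifiers were found.

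Counts were rounded. All 25765 rows holding 1 count or more went into the Wald test of DESeq2 1.42.0 (R 4.3.3) with its default size factors and unshrunken fold changes, and p-values were adjusted by Benjamini-Hochberg over all rows with independent filtering at 0.05. Genes were called at an adjusted p-value under 0.05, and separately also at a log2 fold change of at least 2. With 2 libraries per group, the errors rest on dispersions that DESeq2 shares between genes. Normalized counts are counts over size factors. Profiles were centred log2 values of normalized counts with 0.5 added. Exact permutation tests used SciPy 1.17.1. Code was tested on simulated data. Alternatives were edgeR 4.0.16 (quasi-likelihood, TMM), library-total size factors, a mean of at least 10, shrunken fold changes, a test against a 2-fold change, each library left out, and a replicate block.

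Members and lists were chosen with earlier results of these data known, so no list is independent support. All members could be named, and from a list only the 2 largest and 2 smallest log2 fold changes among genes with a mean of at least 100 normalized counts. The body shape gene ram-4 and the intestinal marker opt-2 matched no row, and cnc-1 of the furrow loss list had no count. DNA and protein sequence was not used here.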

Additional observations from a re-analysis of the deposited data

How the results depend on the processing

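The log2 fold changes of the 6 furrow collagens were above 0 in all 10 alternatives, and dpy-8 was called at least 4-fold higher in each of them, at 2.3 (shrunken) to 3.68 (without control replicate 2). The gene dpy-2 passed the test with edgeR (0.67) and with a mean of at least 10 (0.69). The gene dpy-9 did not pass the test against a 2-fold change (1.36, DESeq2 adjusted p = 1) or with any library left out (1.31 to 1.39), so 1 member was called higher against a 2-fold change and 1 in each fit on 3 libraries (lowest and highest 1), which hold fewer samples. The genes higher in eggd-1 numbered 519 against a 2-fold change and 1174 to 2502 with a library left out, and those at least 4-fold higher numbered 265 after shrinkage, 441 against a 2-fold change and 441 to 716 with a library left out. Calls against a 2-fold change were 88.0% higher, beside 47.7% in the main test, since small differences then fail. The median of the furrow loss genes was -0.12 and ranged over -0.3 to 0.05 with a library left out, the last without control replicate 1; the cause was not tested. Same-numbered libraries did not deviate together (correlation -0.043 over 15192 genes). With 2 libraries per group this is a single contrast, so it cannot exclude that the libraries were prepared in pairs. With the replicate block 2530 genes were higher, dpy-8 was at 3.11, dpy-9 at 1.36 (DESeq2 adjusted p = 0.0151) and no furrow collagen call changed. Precision is limited by 2 libraries per group and by member counts of 11 to 157 per library, with SEs of 0.29 to 0.41.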

Other observations

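Genes beside or overlapping the furrow collagen genes are given beside the 18.6% of all rows that were higher and the 20.4% that were lower. The dpy-8 gene is flanked by tbc-7 and C31H2.3, which had log2 fold changes of 0.17 (DESeq2 adjusted p = 0.54) and 0.36 (adjusted p = 0.8). It overlaps C31H2.14 on the opposite strand, which had 25 and 16 counts in eggd-1 libraries and 10 and 41 counts in controls (0.24, adjusted p = 0.819). The authors counted by strand, so these reads are kept apart from those of dpy-8. The gene pqbp-1.1 beside dpy-9 was lower, with 778 and 669 counts in eggd-1 libraries against 1800 and 2275 in controls (-1.04, adjusted p = 2.39e-11). The gene rpy-1 beside dpy-10 was higher (0.88, adjusted p = 0.00368), as was the homeobox gene ceh-14 beside dpy-7 (0.85, adjusted p = 0.0327). Neither T14B4.5 beside dpy-2 (-0.45, DESeq2 adjusted p = 0.499) nor npax-2 beside dpy-3 (1.1, adjusted p = 0.539) passed the test. Nor did glb-16 beside dpy-7 (0.94, adjusted p = 0.477) or R02D3.8 beside dpy-9 (-0.39, adjusted p = 0.0853). F53B1.9 beside dpy-3 received no adjusted p-value. These neighbours were looked at after the members' values were known. T14B4.19, which overlaps dpy-10 on the same strand, had at most 2 counts in a library. How reads that fall on both genes were assigned was not examined, so these counts do not show that dpy-10 is unaffected.

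The deposited table assigns germline classes to some genes, and it places dpy-8 among the spermatogenic genes and dpy-10 among the oogenic genes. Of 1590 tested protein-coding genes of the spermatogenic class, 760 were higher and 60 were lower in eggd-1 adults, with 332 (20.9%) at least 4-fold higher and a median log2 fold change of 1.11. Of 719 oogenic genes, 75 were higher and 218 were lower, with a median of -0.28. Over all rows with an adjusted p-value, 18.6% were higher, 20.4% were lower and 5.67% were at least 4-fold higher. The other 4 furrow collagens carry neither class. Whether the dpy-8 counts come from the epidermis, the germ line or other cells, those of embryos included, cannot be told apart in RNA from whole animals.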
